A study of Mus musculus with 20 samples.

Results

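The kidney aquaporins are the water channel genes of the nephron and collecting duct: Aqp1, Aqp2, Aqp3, Aqp4, Aqp5, Aqp6, Aqp7 and Aqp11. They were taken by name, whatever their level, and are 8 of the 24411 gene symbols in the count table. RNA was sequenced from whole kidneys of 20 mice, with 5 controls and 5 mutants of each sex. Mutants carried floxed alleles of Pkd2, the gene of polycystin-2, together with the Pax8 and Tet-O-Cre transgenes, so that Pax8-driven rtTA, given doxycycline, switched on Cre along the renal tubule. Controls had the same floxed Pkd2 but lacked either the Pax8 or the Tet-O-Cre transgene. All mice, controls included, received doxycycline at 50 mg/kg at P27 to P29 (postnatal days) and were examined at P125. They came from 3 litters, each with 1 to 3 mice of each genotype and sex, and each library is 1 mouse. A floxed gene recombined only in Pax8 lineage cells leaves intact Pkd2 in vessels, interstitium and blood, and whole kidney RNA mixes all of these.

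Aquaporins are membrane channels that let water follow an osmotic gradient. In the kidney, AQP1 carries water through the proximal tubule and thin descending limb. In the principal cells of the collecting duct, vasopressin moves AQP2 into the apical membrane, and water leaves across the basolateral membrane through AQP3 and AQP4. AQP6 sits in vesicles of intercalated cells, the acid-base cells of the collecting duct, where it conducts anions. AQP7 and AQP11 belong to the proximal tubule, AQP7 as a glycerol and water channel of the brush border and AQP11 as a channel of the endoplasmic reticulum whose loss in mice gives cystic kidneys. AQP5 is a channel of glands and lung.

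Aqp2, Aqp5 and Aqp6 lie in this order on the plus strand of chromosome 15 (GRCm38, GENCODE M21): Aqp2 at chr15:99579055-99584547, Aqp5 at chr15:99590782-99594829 and Aqp6 at chr15:99601400-99605477. The gap from Aqp2 to Aqp5 is 6.23 kb and that from Aqp5 to Aqp6 is 6.57 kb, and the 3 genes span 26.42 kb. Aqp7 (chr4:41033074-41048139) and Aqp3 (chr4:41092722-41098183) are both on the minus strand of chromosome 4, 44.58 kb apart. Aqp1 is at chr6:55336432-55348555 on the plus strand and Aqp11 at chr7:97724006-97738289 on the minus strand. Aqp4 overlaps an antisense gene, AC133525.2, on the other strand. The sources used here do not state whether reads were counted by strand, so reads of these overlapping genes cannot be told apart.

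The promoters of Aqp2, Aqp5 and Aqp6 are shown because these neighbours had very different levels and because Aqp6 fell in mutants where Aqp2 did not pass the test. That of Aqp3 is shown because Aqp3 fell while Aqp2, which serves the same cell, did not pass. Each run holds 250 bases before and 50 bases after a RefSeq start (GRCm38.p6), 5′ to 3′ on the strand of the gene. The windows are chr15:99578806-99579105 for Aqp2, chr15:99590778-99591077 for Aqp5, chr15:99600950-99601249 for Aqp6 and, on the minus strand, chr4:41098134-41098433 for Aqp3. Capitals mark matches, on either strand, to 4 short motifs: the core of the cAMP response element (TGACG), the element found before many start sites (TATAAA, named a box), a site of GATA factors (AGATAA) and the core of the tonicity element (TGGAAA).
Aqp2: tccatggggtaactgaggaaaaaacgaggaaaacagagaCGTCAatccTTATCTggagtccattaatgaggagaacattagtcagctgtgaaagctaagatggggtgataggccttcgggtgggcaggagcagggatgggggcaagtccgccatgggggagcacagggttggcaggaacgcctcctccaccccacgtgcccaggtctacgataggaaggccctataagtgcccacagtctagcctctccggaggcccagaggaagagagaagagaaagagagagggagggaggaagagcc
Aqp5: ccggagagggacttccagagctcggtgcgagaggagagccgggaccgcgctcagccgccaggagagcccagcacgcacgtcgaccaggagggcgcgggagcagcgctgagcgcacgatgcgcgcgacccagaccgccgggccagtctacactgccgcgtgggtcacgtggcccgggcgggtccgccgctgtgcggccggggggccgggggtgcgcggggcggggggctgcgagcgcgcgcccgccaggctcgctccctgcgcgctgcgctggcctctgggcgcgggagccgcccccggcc
Aqp6: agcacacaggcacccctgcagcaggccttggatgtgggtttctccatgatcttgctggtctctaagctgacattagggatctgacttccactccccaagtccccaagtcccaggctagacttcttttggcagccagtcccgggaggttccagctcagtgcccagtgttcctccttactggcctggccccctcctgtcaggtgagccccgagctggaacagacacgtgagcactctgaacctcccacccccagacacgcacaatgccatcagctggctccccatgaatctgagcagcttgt
Aqp3: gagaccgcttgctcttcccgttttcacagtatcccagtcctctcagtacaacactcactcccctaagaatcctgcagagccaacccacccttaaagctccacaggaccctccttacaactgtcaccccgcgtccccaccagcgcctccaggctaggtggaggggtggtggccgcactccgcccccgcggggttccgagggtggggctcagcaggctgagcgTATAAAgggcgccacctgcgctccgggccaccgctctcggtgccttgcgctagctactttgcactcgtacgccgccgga
In the Aqp2 window, the cAMP response element core lay on the reverse strand at position -211 from the start and a GATA site on the reverse strand at -202. The Aqp3 window had a TATA box at -29. None of the 4 motifs was in the Aqp5 or Aqp6 windows, and 1 of the 2 RefSeq starts of Aqp7 had both a GATA site and a tonicity element core. The Aqp5 window lies almost wholly inside the gene as GENCODE M21 places it, and the Aqp6 window ends before the GENCODE start. For these genes the RefSeq starts used thus differ from the GENCODE gene starts. Among 32851 promoters of the same length, 20.81% held the cAMP response element core, 13.62% the TATA box, 11.18% the GATA site and 21.43% the tonicity element core. GC content was 79.7% in the Aqp5 window, 58.7% in that of Aqp6, 56.0% in that of Aqp2 and 64.0% in that of Aqp3, against a median of 52.67% over all promoters. RefSeq promoters were read for 7 of the 8 aquaporins, and none for Aqp4.

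The libraries held 11307741 to 19324073 counts. Pkd2, the targeted gene, was at 291 ± 31.1 CPM (the count relative to the TMM-scaled library total, mean ± SD, n = 5) in male controls, 119 ± 9.86 in male mutants, 257 ± 49.1 in female controls and 145 ± 33.6 in female mutants, and its groups did not overlap in either sex. Kidney weight as a percentage of body weight (KBW, with 1 kidney weighed per mouse) was 0.599 to 0.896% in male controls, 1.22 to 2.15% in male mutants, 0.555 to 0.672% in female controls and 0.836 to 1.46% in female mutants. The library of female mutant 4 stood apart, with counts in 14850 genes against 16776 to 17724 in the other 19, and with 76 genes at exactly 1 count against 708 to 859. Calls below are given with and without it where they rest on it.

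Aqp1 was by far the highest of the 8. Divided by merged exon length, the mean level over the 20 mice was 521.8 CPM per kb for Aqp1, 144.5 for Aqp2, 73.1 for Aqp3, 20.9 for Aqp6, 12.01 for Aqp4, 10.4 for Aqp7, 4.15 for Aqp11 and 0.108 for Aqp5. Aqp1 thus made up 65.7 to 76.9% of the summed aquaporin level per kb in male controls, 66.4 to 74.6% in male mutants, 59.3 to 69.0% in female controls and 53.4 to 63.9% in female mutants. Each neighbour in this order was the higher of its pair in at least 19 of 20 mice, with 1 exception. Aqp4 was above Aqp7 in all 10 females but in 0 of 5 male controls and 1 of 5 male mutants, so these 2 genes changed places between the sexes. The annotation used for counting was not given in the sources used here, so the lengths are those of GENCODE M21.

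**Figure D1:**
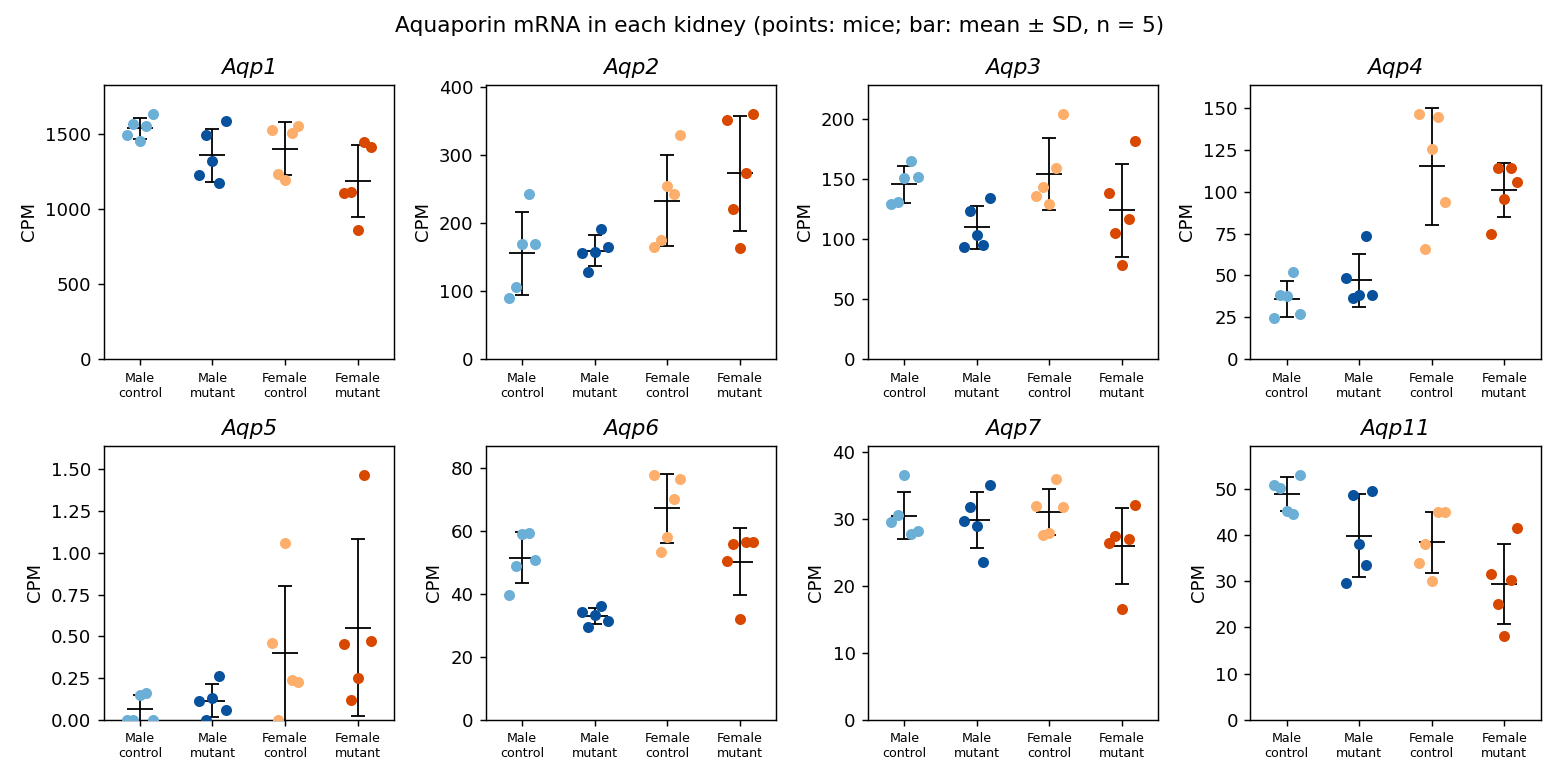
Level of each aquaporin in CPM (vertical axes, each starting at 0) in 5 mice of each of the 4 groups, with points for mice and bars for the mean ± SD; the lower bars of Aqp5 are cut off at 0. Aqp6 was at 29.6 to 36.2 CPM in the 5 male mutants, below all 5 male controls, and Aqp4 was lower in all males of a genotype than in all its females.

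Mutant and control kidneys were first compared over both sexes. Aqp6, the intercalated cell channel, and Aqp3, the basolateral water and glycerol channel of principal cells, were lower in mutants, and no aquaporin was higher. The log2 fold change was -0.54 (SE 0.103, adjusted p = 0.000774) for Aqp6 and -0.38 (SE 0.0884, adjusted p = 0.00356) for Aqp3. Of 14820 genes tested, 5.76% were lower and 10.1% higher at the threshold used by the study, an adjusted p under 0.01, against 2 lower and 0 higher of the 7 aquaporins that passed the filter on low counts. Aqp5 did not pass it. The median log2 fold change of the 7 was -0.21, against -0.01 over all genes tested.

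Aqp6 had the largest of these changes. In male controls 1 to 5 it was at 39.6, 48.9, 59.0, 59.4 and 50.9 CPM, and in male mutants 1 to 5 at 34.2, 29.6, 33.3, 36.2 and 31.4 CPM. In female controls it was at 77.9, 53.4, 58.2, 70.1 and 76.8 CPM, and in female mutants at 50.4, 56.0, 31.9, 56.5 and 56.7 CPM. Every male mutant was below every male control, whereas the female groups overlapped, with female mutants 2, 4 and 5 above the lowest female control, and female mutant 3 was far below the other female mutants. Among males the log2 fold change was -0.69 (SE 0.103, adjusted p = 0.00175), and among females -0.39 (SE 0.151, 95% interval -0.73 to -0.06, adjusted p = 0.163). In males, 3.20% of 14010 genes were called lower and 5.25% higher, and 6.56% were lower without overlap of the 5 against 5 mice. In females only 0.637% of 14439 genes were called in either direction, and 7.06% had groups that did not overlap in either direction, among them none of the 7 aquaporins. Of the 7, 0 were called in females by edgeR or by the DESeq2 Wald test, and 3 had an unadjusted p under 0.05.

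Within each of the 3 litters, Aqp6 was also lower in mutants, by -0.61, -0.77 and -0.69 on the log2 scale in males and by -0.63, -0.37 and -0.44 in females. Several of these differences, here and for the other genes, compare 1 mouse with 1 mouse. The joint call held when any 1 mouse was left out, with adjusted p from 0.000201 to 0.00402, and it was at -0.59 without female mutant 4. The call in males was lost without male control 4, the only male control of its litter (log2 fold change -0.65, adjusted p = 0.017). The sex-by-genotype term, which asks whether the change differed between the sexes, was -0.27 for Aqp6 (SE 0.202, edgeR adjusted p = 1).

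Markers of intercalated cells were lower in mutants together with Aqp6. Of 9 such genes, 7 were lower in the joint comparison and none higher, with a median of -0.59 on the log2 scale. They included Slc4a1, the basolateral anion exchanger of acid-secreting cells (-1.27), Slc26a4, the apical exchanger of base-secreting cells (-0.59), and the proton pump subunit Atp6v1b1 (-0.55). Foxi1, the transcription factor that specifies these cells, was at -0.38 (adjusted p = 0.0335) and did not pass. The summed level of the 9 genes was 588 to 667 CPM in male controls and 277 to 493 CPM in male mutants, and 788 to 905 CPM in female controls and 327 to 690 CPM in female mutants, with no overlap in either sex.

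Set against this sum, Aqp6 was not lower in mutants. Per 1000 CPM of the intercalated markers it was at 81.5 ± 11.3 CPM in male controls (mean ± SD, n = 5), 86.6 ± 23.4 in male mutants, 81.5 ± 15.9 in female controls and 95.4 ± 14.8 in female mutants. These groups overlapped in both sexes. In whole kidney RNA, fewer cells of a type and less RNA per cell cannot be told apart.

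Aqp3 was lower in most mutants of both sexes, with overlap. Male controls were at 129.6, 131, 151, 166 and 152 CPM and male mutants at 93.9, 124, 103, 95.5 and 134 CPM. Female controls were at 136, 143, 129.6, 159.6 and 204 CPM and female mutants at 138, 105, 78.4, 116 and 182 CPM. Only male mutant 5 exceeded any male control, while in females the mutants 1 and 5 lay within the control range. Alone, males had a log2 fold change of -0.42 (SE 0.101, adjusted p = 0.0137) and females one of -0.33 (SE 0.129, adjusted p = 0.177), and neither passed by edgeR, although males did by the DESeq2 Wald test (adjusted p = 0.00194). The sex-by-genotype term was -0.07 (SE 0.181, edgeR adjusted p = 1). The joint call was lost without male control 4 (log2 fold change -0.32, adjusted p = 0.018) and without the litter term (-0.36, adjusted p = 0.0263), and held without female mutant 4 (-0.40, adjusted p = 0.00255). By litter, mutant minus control was -0.34, -0.74 and -0.18 in males and 0.02, -0.54 and -0.16 in females.

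Aqp2, the vasopressin-regulated apical channel, did not pass in any comparison of genotypes. It was at 89.8, 106, 168, 243 and 169.6 CPM in male controls and at 156, 128, 157, 191 and 164 CPM in male mutants. Female controls had 165, 175, 254, 242 and 329 CPM and female mutants 351, 220.4, 162, 272 and 359 CPM. The male mutants all lay inside the wide range of the male controls, and the female groups covered nearly the same range. The joint log2 fold change was 0.09 (SE 0.144, 95% interval -0.21 to 0.40, adjusted p = 0.682).

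The ratio of Aqp2 to Aqp3 within each kidney was higher in mutants on average. It was 0.693 to 1.47 in male controls and 1.04 to 2.00 in male mutants, and 1.21 to 1.96 in female controls and 1.97 to 2.54 in female mutants. The lowest female mutant, at 1.97, lay just above the highest female control, at 1.96, so the female groups were adjacent without overlapping, and the male groups overlapped. This ratio was formed after both genes had been measured and is given as a description, with no test.

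Markers of principal cells moved less than those of intercalated cells. Of 10 genes, 3 were lower in the joint comparison and none higher: Scnn1g, a subunit of the epithelial sodium channel (-0.30), Tfap2b, a transcription factor (-0.54), and Kcne1, a potassium channel subunit (-0.48). Avpr2, the vasopressin receptor, was at -0.06 (adjusted p = 0.758) and Fxyd4, a regulator of the sodium pump, at -0.08 (adjusted p = 0.738). Their summed level was 524 to 681 CPM in male controls, 543 to 713 in male mutants, 933 to 1119 in female controls and 901 to 1090 in female mutants. The marker of highest level had means of 202, 277, 414 and 464 CPM in these groups. It was at 0.29 in the joint comparison (adjusted p = 0.0472) and did not pass. It weighs heavily in the sum, and no ratio without it was computed. Per 1000 CPM of these markers, Aqp3 was at 242 ± 9.80 CPM in male controls (mean ± SD, n = 5) against 179 ± 49.6 in male mutants, and at 154 ± 24.8 in female controls against 127 ± 47.7 in female mutants.

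**Figure D2:**
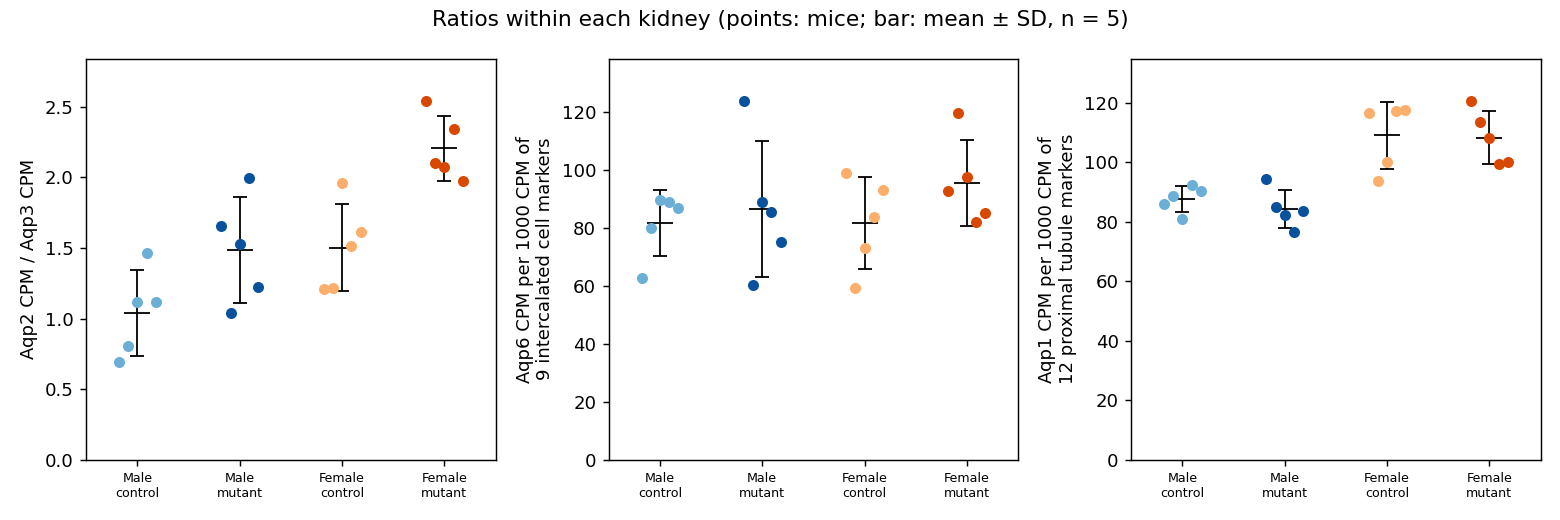
Ratios within each kidney in the 4 groups (5 mice each, points for mice, bars for the mean ± SD, all axes from 0): Aqp2 over Aqp3, Aqp6 per 1000 CPM of 9 intercalated cell markers, and Aqp1 per 1000 CPM of 12 proximal tubule markers. The Aqp2 to Aqp3 ratio was 1.97 to 2.54 in female mutants and 1.21 to 1.96 in female controls, whereas Aqp6 over its marker sum overlapped between genotypes.

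Aqp4, the other basolateral water channel of principal cells, did not pass between genotypes, at 0.05 (SE 0.162, 95% interval -0.29 to 0.39, adjusted p = 0.862) over both sexes. The estimate for males was 0.30 (adjusted p = 0.281) and the one for females -0.16 (adjusted p = 0.744), with a sex-by-genotype term of 0.49 (SE 0.314, adjusted p = 1). No gene passed this term at an adjusted p under 0.01 (0% of 14820), although 618 genes had an unadjusted p under 0.05 and the DESeq2 Wald test called 18. None of the 7 aquaporins was among the 618 or the 18.

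The proximal tubule channels were at slightly lower levels in mutants without passing the test. Aqp1 was at 1490.0, 1566, 1449, 1552 and 1630.0 CPM in male controls, and at 1223, 1491, 1317, 1172 and 1586 CPM in male mutants. Female controls had 1526, 1235, 1190.0, 1505 and 1553 CPM, and female mutants 1107, 1112, 859, 1443 and 1410.0 CPM. In each sex, 3 of 5 mutants were below all controls of their sex, and the other 2 were within the control range. The joint log2 fold change was -0.21 (SE 0.088, adjusted p = 0.0881).

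Aqp11, the endoplasmic reticulum channel, was at 50.9, 50.2, 45.3, 44.6 and 53.0 CPM in male controls and at 29.6, 48.7, 38.1, 33.5 and 49.5 CPM in male mutants. It was at 34.0, 38.1, 30.0, 45.0 and 45.0 CPM in female controls and at 31.6, 25.1, 18.1, 30.3 and 41.5 CPM in female mutants. Male mutants 2 and 5 were inside the control range and the other 3 below it, and in females 2 of 5 mutants were below all controls. The joint log2 fold change was -0.35 (SE 0.11, adjusted p = 0.0254), which did not pass at 0.01 but did without male mutant 2 (-0.42, adjusted p = 0.00887). Aqp7 was at 27.8 to 36.6 CPM in male controls, 23.6 to 35.1 in male mutants, 27.5 to 35.9 in female controls and 16.6 to 32.1 in female mutants, with a joint log2 fold change of -0.13 (SE 0.1, adjusted p = 0.354).

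Of 12 markers of the proximal tubule, 1 was higher in the joint comparison, Slc13a1, a sulfate transporter (0.60), and none was lower by edgeR, with a median log2 fold change of -0.15 and 4 at an unadjusted p under 0.05 in the lower direction. Over all 14820 genes tested, 5584 had an unadjusted p under 0.05 in either direction and the DESeq2 Wald test called 3098. Without female mutant 4, edgeR called 3149 of 14960 genes. By the DESeq2 Wald test, and by edgeR without female mutant 4, 1 of the 12 markers was lower. Their summed level was 16820 to 18020 CPM in male controls and 12960 to 18940 CPM in male mutants, and 11870 to 13200 CPM in female controls and 7936 to 14520 CPM in female mutants. In each sex the 3 mutants with Aqp1 below all controls also had this sum below all controls. Aqp1 per 1000 CPM of these markers was 87.7 ± 4.48 CPM in male controls (mean ± SD, n = 5), 84.3 ± 6.46 in male mutants, 109 ± 11.3 in female controls and 108 ± 9.02 in female mutants. Of 5 markers of the thin descending limb, where AQP1 also lies, 2 were higher in the joint comparison and 1 lower. They summed to 57.65 to 133.9 CPM in male controls and 85.28 to 195.4 CPM in male mutants. In females the sum was 158.4 to 214.5 CPM in controls and 231.3 to 319 CPM in mutants, without overlap. Slc14a2, which is also counted below among genes of urea handling, gave much of this sum. Its means were 117 CPM in female controls and 175 CPM in female mutants, and it did not pass in the joint comparison (adjusted p = 0.0167). Aqp1 is also made by endothelium and red cells. Of 6 endothelial markers, 0 passed in the joint comparison by edgeR, 3 had an unadjusted p under 0.05 (2 higher and 1 lower) and 1 passed by the DESeq2 Wald test. Among males alone, 1 of the 6 was called higher in mutants and 0 lower, against 5.25% of genes higher there. It was Pecam1, an adhesion molecule of endothelial cells (0.55, adjusted p = 0.00391), and the median of the 6 was 0.11. Of 5 erythroid genes, the 4 globin genes were at 0 in all 20 libraries and so cannot show how much red cell RNA was present. The fifth, Alas2, was detected and was lower in mutants (-2.17). Aqp7 is also made by adipocytes, whose 6 markers summed to 0.339 to 446.8 CPM. The highest sum was in female mutant 3, which had the lowest Aqp7 level of all 20 mice, 16.6 CPM. Without that mouse the joint log2 fold change of Aqp7 was -0.08. Other cell types moved too: 4 of 6 fibroblast, 4 of 6 immune and 6 of 6 tubule injury markers were higher in mutants, and 5 of 6 thick ascending limb, 5 of 5 distal convoluted tubule and 4 of 5 podocyte markers were lower. Their part in the aquaporin results was not tested.

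Aqp5 was barely detected. Its counts were 0 in 3 male controls and 2 in the other pair, 0 to 4 in male mutants, 0 to 18 in female controls and 2 to 17 in female mutants. The 2 highest libraries were female control 3 with 18 counts and female mutant 4, the library that stood apart, with 17. No fold is given for levels this low.

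**Figure D3:**
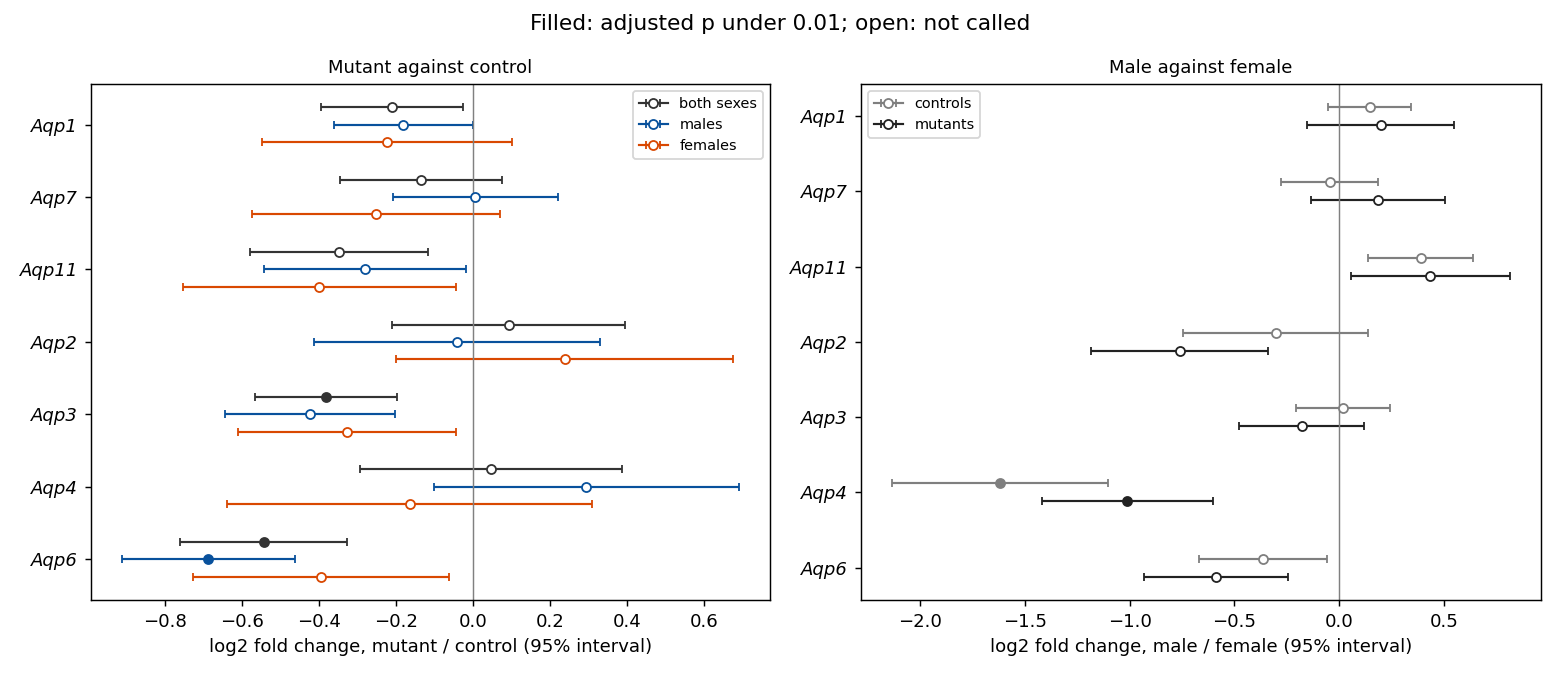
Log2 fold changes of the 7 tested aquaporins with 95% intervals, for mutant against control (left; both sexes, males and females) and for male against female (right; controls and mutants), with filled symbols at an adjusted p under 0.01. Aqp3 and Aqp6 lie left of 0 in all 3 genotype comparisons, and Aqp4 lies at -1.62 in controls and -1.01 in mutants in the comparison of sexes.

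The second question of the design was how the sexes differ within a genotype. Aqp4 differed most: it was lower in males than in females in controls and in mutants. Male controls were at 24.7, 38.3, 37.9, 52.1 and 27.1 CPM against 146, 65.6, 125.4, 144 and 94.2 CPM in female controls. Male mutants were at 48.4, 36.6, 38.2, 73.8 and 38.1 CPM against 75.0, 114, 96.0, 114 and 106 CPM in female mutants. The sexes did not overlap in either genotype, although male mutant 4, at 73.8 CPM, came close to female mutant 1, at 75.0 CPM. The log2 fold change, male over female, was -1.62 in controls (SE 0.236, adjusted p = 0.000316) and -1.01 in mutants (SE 0.183, adjusted p = 0.00559).

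Aqp4 was the only one of the 7 aquaporins called between the sexes by edgeR, and it was called in both genotypes. In controls 9.02% of 14123 genes were lower in males and 14.2% were lower without overlap, and in mutants 1.84% of 14416 genes were lower in males and 5.33% were lower without overlap. By litter, male minus female was -2.15, -1.02 and -1.79 on the log2 scale in controls and -0.83, -1.02 and -1.47 in mutants. The call in controls held without any 1 mouse, with adjusted p from 1.66e-05 to 0.00828. The call in mutants was lost without any of 6 mice (male mutants 2, 3 and 5 and female mutants 1, 2 and 5), with log2 fold changes from -1.10 to -0.85 and adjusted p up to 0.0369, and held without female mutant 4 (-0.99, adjusted p = 0.00674).

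Several principal cell markers were lower in males too. In mutants, 782 of 14416 genes were called in either direction (1959 by the DESeq2 Wald test, and 1330 of 14576 without female mutant 4). Of the 10 principal cell markers, 1 was called there (7 by the DESeq2 Wald test, 3 without female mutant 4). In controls, 6 of 10 were called, among them Hsd11b2, which shields the mineralocorticoid receptor from glucocorticoids (-0.63), and the sodium channel subunits Scnn1b (-0.42) and Scnn1g (-0.38). Also called was the marker of highest level, at -0.92 (adjusted p = 5.79e-05), with means of 202 CPM in male and 414 CPM in female controls. It weighs heavily in the sum of the 10. Per 1000 CPM of the 10 markers, Aqp4 was at 59.4 ± 14.8 CPM in male controls (mean ± SD, n = 5) and 114 ± 33.0 in female controls, and at 74.0 ± 20.6 in male mutants and 102 ± 20.6 in female mutants. In controls the 2 sexes overlapped in this ratio, with 44.2 to 76.5 CPM in males and 70.3 to 151 CPM in females. Markers of other cell types were also lower in male controls, with 5 of 6 called for the thick ascending limb, 5 of 5 for podocytes, 5 of 6 for endothelium and 3 of 9 for intercalated cells. Markers of the proximal tubule were split. By edgeR, 5 of 12 were called higher in male controls and 0 lower, against 8.75% of genes higher there. At an unadjusted p under 0.05, 5 were higher and 3 lower, where 5700 of 14123 genes were under it in either direction. The median log2 fold change of the 12 was 0.06. The 12 markers summed to 16820 to 18020 CPM in male controls and 11870 to 13200 CPM in female controls, without overlap. The part of these cell types in the Aqp4 difference was not tested.

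Aqp2, Aqp3 and Aqp6 did not pass between the sexes by edgeR. Aqp2, male over female, was at -0.30 in controls (SE 0.202, adjusted p = 0.288) and -0.76 in mutants (SE 0.191, adjusted p = 0.0244), and Aqp6 at -0.36 (SE 0.14, adjusted p = 0.069) and -0.59 (SE 0.155, adjusted p = 0.0299). Aqp3 was at 0.02 in controls and -0.18 in mutants. Aqp11 went the other way, at 0.39 in controls (SE 0.115, adjusted p = 0.0241) and 0.43 in mutants (SE 0.171, adjusted p = 0.118). In each of the 3 litters its male mean was above the female mean in both genotypes, although some of these means are of 1 mouse. By the DESeq2 Wald test, Aqp2 (adjusted p = 0.00196) and Aqp6 (adjusted p = 0.00605) passed in mutants and Aqp11 (adjusted p = 0.00889) in controls. By edgeR, Aqp2 (-0.90, adjusted p = 0.00509) and Aqp6 (-0.72, adjusted p = 0.000646) passed in mutants without female mutant 3, and Aqp11 (0.44, adjusted p = 0.00606) in controls without female control 4. Estimates for Aqp1 were 0.14 and 0.20 and for Aqp7 -0.05 and 0.18, none of which passed.

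Of the other aquaporin genes in the table, Aqp8, a water and ammonia channel, was at 1.202 to 1.78 CPM in male controls, 1.58 to 2.84 in male mutants, 0.264 to 1.22 in female controls and 0.294 to 0.776 in female mutants. In mutants it was higher in males (log2 fold change 2.13, SE 0.36, adjusted p = 0.00389), against 3.59% of genes higher there. This call was lost without any of 7 mice (male mutants 2, 3, 4 and 5 and female mutants 1, 2 and 5), with adjusted p up to 0.0291. In controls the estimate was 1.253 (adjusted p = 0.0136), which did not pass by edgeR and passed by the DESeq2 Wald test (adjusted p = 0.00813). Aqp9 stayed at or below 0.452 CPM and Mip at or below 0.366 CPM, and Aqp12 had 0 counts in all libraries.

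The third question was whether aquaporin levels followed the size of the cystic kidney. In the 10 mutants, Pearson's r of log2 CPM with KBW was -0.64 for Aqp4 (permutation p = 0.0471, Spearman's rho = -0.54, p = 0.114) and -0.66 for Aqp6 (permutation p = 0.0388, rho = -0.50, p = 0.144). On average, male mutants had both the larger kidneys and the lower levels of these genes. With level and KBW each centred within its sex, r was -0.13 for Aqp4 (permutation within sex, p = 0.745) and -0.29 for Aqp6 (p = 0.436), so neither relation held within the sexes. Without the 2 mice farthest from the median KBW, male mutant 1 and female mutant 4, the pooled r was -0.58 and -0.62. Without female mutant 4 alone, it was -0.56 for Aqp4 (permutation p = 0.119) and -0.56 for Aqp6 (permutation p = 0.117). Leaving out male mutant 2 instead gave the strongest values, -0.83 (permutation p = 0.0052) and -0.82 (permutation p = 0.00556).

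Aqp1 and Aqp11 showed the reverse. Pooled r was -0.15 for Aqp1 (permutation p = 0.681, rho = -0.16, p = 0.657) and -0.0044 for Aqp11 (permutation p = 0.99, rho = -0.018, p = 0.972), but with the sexes centred it was -0.65 (permutation within sex, p = 0.0419) and -0.63 (p = 0.0639). Without the same 2 mice the pooled r was 0.015 and 0.039. In a fit over all genes with sex as a term, Aqp11 changed by -0.83 log2 units per percentage point of KBW (SE 0.32, adjusted p = 0.159) and Aqp1 by -0.57 (SE 0.239, adjusted p = 0.185). No gene passed that fit (0% of 14416), with 3212 at an unadjusted p under 0.05, and the DESeq2 Wald test called 577 genes, none of them an aquaporin.

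For the other channels, pooled r was -0.58 for Aqp2 (permutation p = 0.0797, rho = -0.55, p = 0.105), -0.46 for Aqp3 (permutation p = 0.175, rho = -0.53, p = 0.124) and 0.036 for Aqp7 (permutation p = 0.92, rho = 0.03, p = 0.947). Without the same 2 mice these were -0.52, -0.49 and -0.093. With the sexes centred they were -0.15, -0.46 and -0.34. These are 7 relations computed on the same 10 mice, and with 5 mice of each sex none is given for 1 sex alone.

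**Figure D4:**
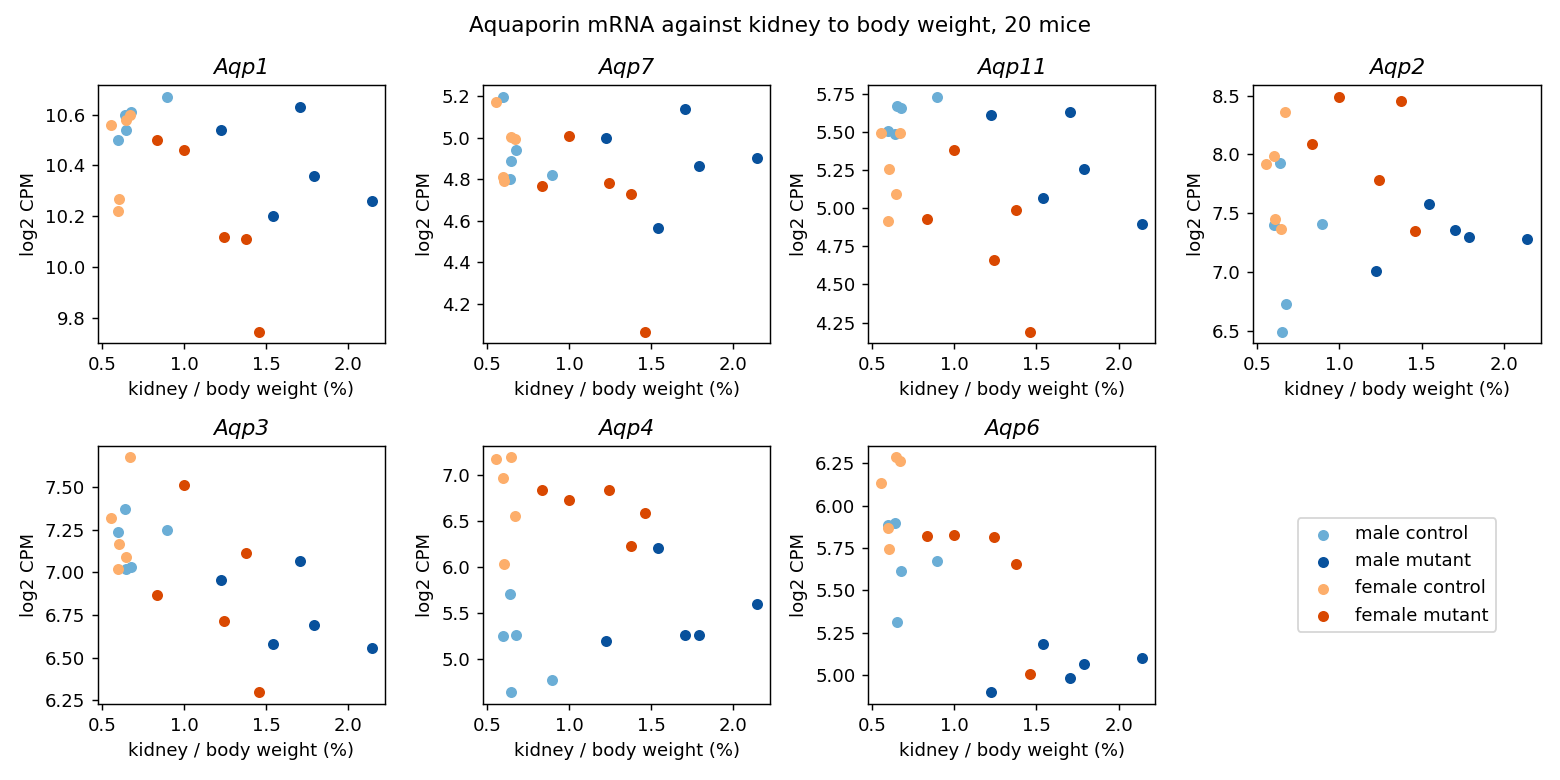
Level of each tested aquaporin (vertical axes, log2 CPM, not starting at 0) against kidney weight as a percentage of body weight (horizontal axes) in the 20 mice, coloured by group. Among mutants, males had on average larger kidneys and lower Aqp4 and Aqp6, with overlap in KBW and in Aqp6, and Aqp1 and Aqp11 had within-sex centred r of -0.65 and -0.63.

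Genes that act with the aquaporins were compared between genotypes over both sexes. The vasopressin pathway that drives AQP2 to the membrane had 18 genes tested, with 1 higher and 1 lower in mutants (2 and 2 without female mutant 4). Over all 14820 genes tested, 5584 had an unadjusted p under 0.05 and the DESeq2 Wald test called 3098. Without female mutant 4, edgeR called 3149 of 14960 genes. Of the 18 in this pathway, 7 had an unadjusted p under 0.05, and 4 passed by the DESeq2 Wald test. The lower one was Adcy6, the adenylyl cyclase of this pathway (-0.26, SE 0.0631, adjusted p = 0.00506), and the higher one Edn1, an endothelin that opposes vasopressin (1.03, SE 0.268, adjusted p = 0.00769). Gnas, the stimulatory G protein, was at -0.17, Prkar1a, a regulatory subunit of protein kinase A, at 0.07 and Nedd4l, a ubiquitin ligase, at -0.06, none of which passed. Of 17 genes of AQP2 vesicle trafficking, 0 passed by edgeR, 5 had an unadjusted p under 0.05 and 1 passed by the DESeq2 Wald test. The 4 of highest level were Ezr at 0.13, Cltc at 0.05, Rhoa at 0.03 and Rab7 at 0.01.

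Of 11 transcription factors of the collecting duct, 2 were higher and 2 lower in mutants. Elf3 (0.93, SE 0.175, adjusted p = 0.000715) and Klf5 (1.122, SE 0.279, adjusted p = 0.00572) were higher, and Tfap2b (-0.54, SE 0.0792, adjusted p = 8.15e-05) and Hoxd8 (-0.53, SE 0.0801, adjusted p = 0.00011) were lower. Nfat5, the tonicity factor, was at 0.03 and did not pass.

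Of 7 tested genes of urea and osmolyte handling, 2 were lower, among them Slc6a6, a taurine transporter (-0.31, adjusted p = 0.0047). Slc14a2, the urea transporter, was at 0.55 (adjusted p = 0.0167) and Slc5a3, the myo-inositol transporter, at -0.34 (adjusted p = 0.0804). Of 7 genes of glycerol handling, which AQP3 and AQP7 serve, 2 were lower: Pck1, of gluconeogenesis (-0.66, adjusted p = 0.00518), and Pnpla2, a lipase (-0.27, adjusted p = 0.00785). Without female mutant 4, 4 of these 7 were lower, while the calls over all genes went from 2344 of 14820 to 3149 of 14960. Fbp1, of gluconeogenesis, was at -0.34 (adjusted p = 0.0161), Gpd1 at -0.24 and Mgll, a lipase, at -0.15, and none of these 3 passed.

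Over the 20 mice, some aquaporins varied together. Pearson's r of log2 CPM was 0.89 between Aqp1 and Aqp11, 0.79 between Aqp1 and Aqp7 and 0.73 between Aqp7 and Aqp11, and 0.66 between Aqp2 and Aqp4, while that between Aqp4 and Aqp11 was -0.58. Aqp3 had r = 0.68 with Aqp1, 0.68 with Aqp11, 0.68 with Aqp6 and 0.64 with Aqp7, against 0.41 with Aqp2 and 0.033 with Aqp4, the other channels of its cell type. These are descriptions over libraries that share sex, genotype and litter.

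Among 13774 genes with a mean of at least 1 CPM, those most like each aquaporin over the same 20 mice were found by Pearson's r. For Aqp1 they included Eci3 (0.95) and Lrpap1 (0.95), and for Aqp11 they were Phyhd1 (0.96), Gcdh (0.95) and Echdc2 (0.95). For Aqp7 they were Tmed4 (0.90), Rbpms2 (0.88) and Ggact (0.88). Aqp2 was most like Pdcd4 (0.83), Fxyd4 (0.83) and Avpr2 (0.81), of which Fxyd4 and Avpr2 are markers of principal cells. Aqp3 was most like Tecr (0.92), Cyhr1 (0.92) and Galt (0.91). The genes most like Aqp4 included Abcc3 (0.93) and Tril (0.92), and Aqp6 was most like Egfl6 (0.93), Nudt4 (0.92) and Nrbp2 (0.91).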

How the data were processed

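RNA was sequenced from 20 mouse kidneys. Per the methods and the submitters' processing notes, the authors used fastp 0.23.2 for trimming and STAR 2.7.10b for alignment, with mm10 as the genome; the counting tool, annotation and strand setting were not given in the sources used here. The deposited values are raw counts per gene symbol, 11307741 to 19324073 per library, which limits what is seen of genes near 0.

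Counts were scaled by TMM and tested with the quasi-likelihood test of edgeR 4.0.16 (R 4.3.3, limma 3.58.1) after its default filter on low counts. The fit over both sexes had sex and litter as 6 groups plus genotype, fits of 2 groups had litter as a term, and the KBW fit had sex. Litter is the batch the labels give, so within-litter differences are printed. P-values were adjusted by Benjamini-Hochberg over all genes tested and called at 0.01. CPM used TMM totals, with a prior count of 2 for log2 CPM. Mice are the replicates, and replicate numbers are only names. Correlations used two-sided permutation tests with 100000 resamples, and an exact one within sex where the sexes were centred. The scripts' tests were tried on simulated data. DESeq2 1.42.0, other filters, no litter term and leaving out each mouse were alternatives.

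The aquaporins and all gene lists were chosen with earlier results of these data known. Named were the 8 members, the rest of the family, Pkd2, the 4 genes of highest mean CPM of each pathway list and the 3 genes most like each member, except some genes that are not reported here. Cell type lists are given by counts and sums. Slc4a1, Slc26a4, Atp6v1b1, Foxi1, Scnn1b, Scnn1g, Kcne1, Hsd11b2, Slc13a1, Alas2, Edn1, Elf3, Klf5, Pecam1 and Pnpla2 were named after their values were seen. The sums per list include genes below the filter.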

Additional observations from a re-analysis of the deposited data

Results flagged for a closer look

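In 40 groups of 5 mice, 3 held a mouse far from the other 4 (its gap to the nearest mouse was over 0.71 of the range), where chance alone flags about 1 group in 20. Aqp5 was at 1.47 CPM in female mutant 4, whose library stood apart in its number of genes detected, against 0.12 to 0.47 CPM in the other female mutants. Aqp6 was at 31.9 CPM in female mutant 3 against 50.4 to 56.7 CPM in the others, and this mouse also had the lowest Aqp1, Aqp2, Aqp3, Aqp7 and Aqp11 of its group, the highest KBW, 1.46%, and 446.8 CPM of adipocyte markers, the highest sum of all 20 mice. KBW was 0.896% in male control 5 against 0.599 to 0.678% in the other male controls.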

How the results depend on the processing

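No paired analysis was possible because replicate numbers are only names given in accession order and pair no mice; litter, which the labels give, was a term in the fits in place of such a block. Over both sexes, 2 aquaporins were called, 1 (Aqp6) without the litter term and 1 to 3 when 1 mouse was left out (Aqp11 added without male mutant 2). In males, 1 was called, 2 (Aqp3 added) with DESeq2's Wald test or with no filter on low counts, and 0 to 2 without 1 mouse. In females, 0 were called under every alternative run, although the 92 genes called became 928 with DESeq2, 856 with all 20 mice in 1 fit and 866 without female mutant 4. Between the sexes, 1 aquaporin was called in controls (2 with DESeq2, 1 to 2 without 1 mouse), and 1 in mutants (3 with DESeq2, 2 with all 20 mice in 1 fit, 0 to 3 without 1 mouse). In mutants the genes called went from 782 to 1959 with DESeq2 and 2353 with all 20 mice in 1 fit. In males they went from 1185 to 2001 with DESeq2 and 187 without male control 4. The sex-by-genotype term and the slope on KBW gave 0 aquaporins throughout. Pearson's r with KBW had an unadjusted p under 0.05 for 2 aquaporins, for 1 (Aqp1) with the sexes centred and for 0 to 3 without 1 mouse.

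None of the estimates whose sign turned had passed the test. They were Aqp2 in males (0.0316 without the litter term, 0.015 with all 20 mice), Aqp7 in males (-0.0365 without the litter term), Aqp3 between control sexes (-0.0416 without the litter term, -0.10 with all 20 mice), Aqp7 between control sexes (0.0183 without the litter term), Aqp7 on KBW (slope -0.34, and 0.0334 without the sex term, r = -0.34 with the sexes centred) and Aqp8 between genotypes (-0.0002 with DESeq2 size factors, -0.0033 with no filter). With 1 mouse left out, the estimates whose sign turned had these ranges. Over both sexes: Aqp2 -0.0161 to 0.19, Aqp4 -0.0215 to 0.16, Aqp8 -0.11 to 0.18, Nfat5 -0.0765 to 0.11 and Rab7 -0.0074 to 0.0207. In males: Aqp2 -0.16 to 0.14 and Aqp7 -0.0728 to 0.055. In females: Aqp4 -0.34 to 0.0327. Between control sexes: Aqp3 -0.13 to 0.14 and Aqp7 -0.10 to 0.0002. In the sex-by-genotype term: Aqp1 -0.0238 to 0.19 and Aqp3 -0.19 to 0.0611. On KBW: slopes of Aqp2 -0.60 to 0.15, Aqp4 -0.64 to 0.0438 and Aqp6 -0.55 to 0.0369, and r of Aqp7 -0.0771 to 0.16 and Aqp11 -0.14 to 0.11. The calls of Adcy6, Slc6a6 and Pck1 were lost without some single mice, at adjusted p up to 0.0116, 0.0145 and 0.0119. A change chosen after seeing the data, the filter applied to the 2 genotypes, left the joint aquaporin calls as they were. The causes were not tested.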
